A study of Arabidopsis thaliana with 24 samples.

Results

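Roots of the double line, in which ATHB25 and REM7 can be induced together by estradiol, were compared with control roots before any estradiol was given. The comparison used 6 of the 24 arrays of the series, namely 3 of uninduced ISH1&2 plants, as the labels call the ATHB25/REM7-ind line, and 3 of uninduced control plants. They were chosen by the sample titles and paired by the slide that carried them. Both groups were Col-0 plants of Arabidopsis thaliana aged 15 days, selected on hygromycin and then moved to plates with 0 µM estradiol. Plants of the same lines on 5 µM estradiol (3 ISH1&2 and 3 control arrays) and uninduced plants of the lines ISH1 and ISH2 (3 arrays each), which carry an inducible gene each, are set beside them. The labels do not say which gene ISH1 and ISH2 carry, and the construct in the control plants is not clear from the sources used here. A description field goes against the title, source name and genotype field on 2 control arrays, since it speaks of induction for replicate 2 without estradiol and of none for replicate 3 with estradiol. The other fields were followed. Without that uninduced control array, 111 genes were called at least 2-fold higher and 34 lower, against 147 and 46 with it.

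In the XVE system used here, a fusion of a DNA-binding domain, an activation domain and the human estrogen receptor is made constantly from a 35S promoter. It activates the introduced cDNA, placed behind its operator sites, when estradiol binds it, and a weak activity without estradiol is known as leak. ATHB25 is a zinc finger homeodomain transcription factor, and REM7 belongs to the B3 family of plant transcription factors. Whether the arrayed plants of a line descended from a single insertion event was not stated in the sources used here, and the probes cannot tell the introduced copy of ATHB25 or REM7 from the plant's own gene.

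Values are log2 of the processed array signal minus the array's 75th percentile, so 0 is the brightness below which 75% of the probes of an array lie. A gene was called when its Benjamini-Hochberg adjusted p in limma, over all 27816 genes tested, was under 0.05. The adjusted p-values below come from that model, in which the spread was shared by all 24 arrays and the slide was a block. Where no array of a group was well above background, that group was set no lower than the dimmest probe above background on each array. The resulting fold is given as at least its value, and some equal the fitted fold. Such a bound holds for this processing only, as another background correction (normexp) gave smaller differences for ATHB25, SESA5 and PAP85. The labels call the replicates biological triplicates without saying how the plants were pooled.

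The arrays were alike in depth of signal, with 77.8 to 80.2% of probes well above background on the control arrays and 80.1 to 80.8% on the ISH1&2 arrays. The local background was 60 to 63 on the ISH1&2 arrays and 51.5 to 56 on the control arrays. Each line occupied the same position on every slide, so that line and position cannot be told apart. Uninduced ISH1 replicate 1 stood apart from the other 23 arrays, with 91.0% of probes above background against 76.9 to 84.8%.

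ATHB25 and REM7 transcripts were both far higher in uninduced ISH1&2 roots than in control roots. ATHB25 (AT5G65410) measured -9.05, -8.87 and -8.78 on the control arrays, none of them above background, and -1.18, -0.14 and -0.61 on the ISH1&2 arrays. The groups were wide apart, and the level of the line was at least 286-fold higher, with a difference of 8.26 on the log2 scale (SE 0.354, n = 3, adjusted p = 1.16e-08 in limma). Under the normexp correction the ATHB25 difference was 5.18. REM7 (AT3G18960) measured -1.72, -1.72 and -1.47 in control roots and 4.52, 4.53 and 4.64 in ISH1&2 roots, a 73.6-fold difference (6.20 on the log2 scale, SE 0.354, adjusted p = 3.38e-07 in limma).

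With estradiol, the line difference of ATHB25 changed further and that of REM7 did not pass the test of a change. ATHB25 stood at 4.14, 4.23 and 4.36 in ISH1&2 roots with estradiol, and its line difference with estradiol exceeded that without by 4.00 (adjusted p = 1.18e-05 in limma), measured against control arrays near or below background. REM7 stood at 4.70, 4.71 and 4.58 with estradiol, and the change of its line difference was -0.07 ± 1.08 (95% confidence interval, adjusted p = 0.920). Uninduced ISH1 roots held ATHB25 at -4.19, -4.60 and -4.58 and REM7 at -1.66, -1.60 and -1.56. Uninduced ISH2 roots held ATHB25 at -6.57, -7.13 and -7.94 and REM7 at 0.18, 0.06 and -0.16. Thus the double line exceeded ISH1 by 3.81 and ISH2 by 6.57 for ATHB25, and by 6.17 and 4.54 for REM7, all of them called.

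**Figure D1:**
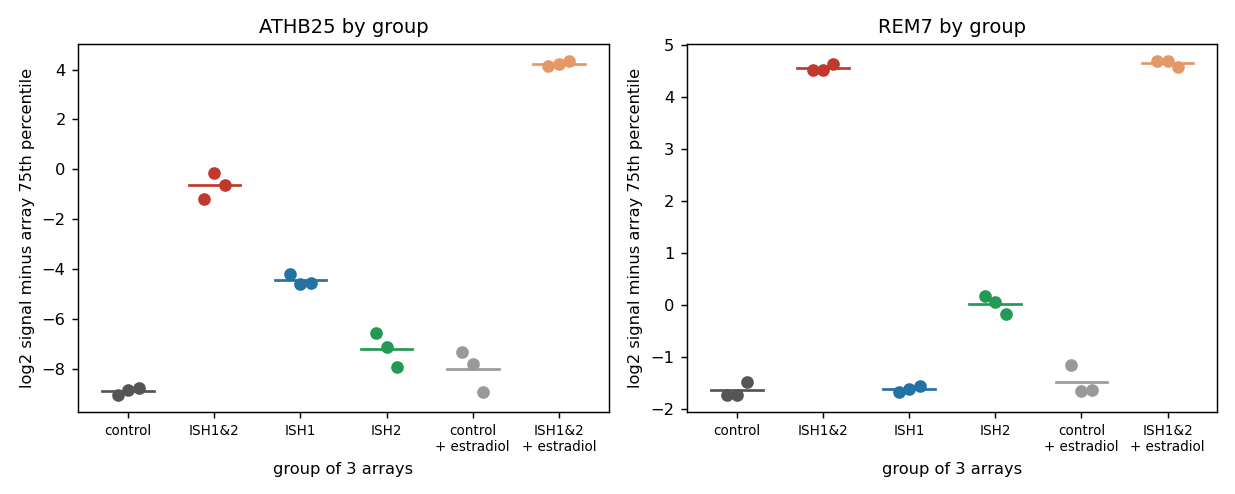
ATHB25 (left) and REM7 (right), in log2 signal minus the array's 75th percentile, on each of 3 arrays (points) of 6 groups, with the group mean (line). ATHB25 in ISH1&2 roots lay between -1.18 and -0.14 without estradiol and above 4 with it, whereas REM7 was near 4.6 in both.

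With the introduced genes included, 1401 genes (5.04% of those tested) were called higher and 1914 (6.88%) lower in uninduced ISH1&2 roots. Most of these differences were small, with a median size of 0.25 on the log2 scale, or 1.19-fold. Only 147 genes (0.528%) were called at least 2-fold higher and 46 (0.165%) at least 2-fold lower, together 5.82% of the calls. The median difference over all genes was -0.01. The nearest genes to the threshold were AT4G27590, just inside at 1.00, and BGLU27, just outside at 0.996. Of the 193 genes past 2-fold, 157 matched a locus of the reference.

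The ISH1&2 and control arrays did not overlap in 141 of the 147 higher genes and in 44 of the 46 lower ones. Over all genes tested, 14.5% did not overlap with the line higher and 18% with it lower, and choosing genes by a called 2-fold difference largely sets these counts. In 52 of the higher genes no control array was above background, and in 12 of the lower genes no ISH1&2 array was. In 3 genes neither group was above background on any array, and those have no measurable fold.

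These calls rest on the spread shared by all 24 arrays. When the 6 arrays were fitted alone, with 2 residual degrees of freedom, 13 genes (0.0467%) were called and 6018 had an unadjusted p under 0.05. Those 13 include ATHB25, REM7, AT3G33528, AT3G56210, DEG9, RAC2, UMAMIT32, AT4G04601 and AT3G01345. The normexp correction left 24 higher and 8 lower genes past 2-fold. Leaving out 1 array at a time, named genes lost their call most often without ISH1&2 replicate 2 (27 of 54) and least often among the compared arrays without control replicate 3 (11). Without ISH1&2 replicate 2 there were 70 higher and 23 lower genes, and without control replicate 1 there were 78 and 37.

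Of the 22 gene lists examined, that of seed storage and oil body proteins had the largest median difference from control. Such genes are normally active in the maturing embryo, where 2S albumins and cruciferins store protein, oleosins and caleosins coat oil bodies and LEA proteins accumulate before drying. Of 17 measured members of the list, 12 were called higher and 0 lower, where 5.04% of all genes were higher and 6.88% lower. The list median was 2.58 against -0.01 over all genes. With the members that were above background on no control array set at their bounds, the list median was 2.38. Of the 17 members, 13 did not overlap with control and were higher, where 14.5% of all genes did not overlap in that direction. In 6 of the 12 called members no control array was above background. RNA of fewer cells of a type and less RNA per cell cannot be told apart in these whole-root samples.

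SESA5, a 2S albumin, measured -10.43, -10.67 and -10.95 in control roots and -2.48, -1.31 and -4.77 in ISH1&2 roots. It was at least 79.1-fold higher (log2 difference 7.83, SE 0.885, adjusted p = 3.42e-04 in limma). All 3 ISH1&2 arrays stood high, but replicate 2 was highest and replicate 3 lowest, and without replicate 2 the fitted difference was 6.82. PAP85, a vicilin-like storage protein, followed the same order at -2.36, -1.42 and -4.91 against -10.41, -10.56 and -10.29 in control roots (at least 76.7-fold, adjusted p = 2.66e-04). OLEO1, the main oleosin of seeds, read -3.99, -2.69 and -6.13 against -10.38, -10.67 and -10.37 (at least 29.6-fold, adjusted p = 0.00495). Each of these was dim in control roots and again lowest in replicate 3 of the line. Under the normexp correction the log2 difference was 3.66 for SESA5, 3.49 for PAP85 and 2.31 for OLEO1, the last not called. Without ISH1&2 replicate 2 the fitted difference was 6.40 for PAP85 and 5.02 for OLEO1, and without replicate 3 it was 8.61 and 6.89. OLEO1 also moved without control replicate 1, to 5.58, and without control replicate 3, to 6.83.

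Of the other called members, 3 were above background on no control array, and for them only bounds hold. PER1, a seed peroxiredoxin, was at least 14.0-fold higher, the oleosin OLEO2 at least 8.04-fold and the caleosin CLO1 at least 5.21-fold. The albumins SESA3 and SESA4 differed by 5.82 and 1.99 on the log2 scale, the cruciferin CRU2 by 4.45, the LEA proteins EM1 and EM6 by 4.18 and 2.06 and the oleosin OLEO4 by 2.12. SESA3 was above background on 2 of 3 control arrays, and CRU2 and EM1 on 1 of 3. EM6 was measurable in every group and read -3.97, -4.24 and -3.97 in control roots against -1.85, -0.86 and -3.28. The members that missed the threshold were CRA1 (1.96, adjusted p = 0.182), CRU3 (1.16, 0.173), SESA2 (1.12, 0.207), OLEO3 (0.23, 0.260) and RAB18 (-0.06, 0.807).

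All 12 called members shared the order of the ISH1&2 arrays, with replicate 2 above replicate 1 above replicate 3. Their median level was -4.07, -3.11 and -5.61 on replicates 1, 2 and 3, against -9.52, -9.38 and -9.60 on the control arrays. In uninduced ISH1 roots the medians were -6.55, -9.12 and -9.19, highest on replicate 1, the array that stood apart. Dim genes in general were highest there, as 91.6% of the 1370 genes above background on no control array had their highest ISH1 value on replicate 1. The summed linear level of 9 embryo and seed markers was 0.514, 1.2 and 0.125 on the 3 ISH1&2 arrays, 0.0231 to 0.0293 on the control arrays and 0.146, 0.0278 and 0.0239 on the ISH1 arrays. In control roots SESA2, SESA5, OLEO1 and OLEO2 were above background on no array. The part of embryo or seed RNA in these values was not tested.

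**Figure D2:**
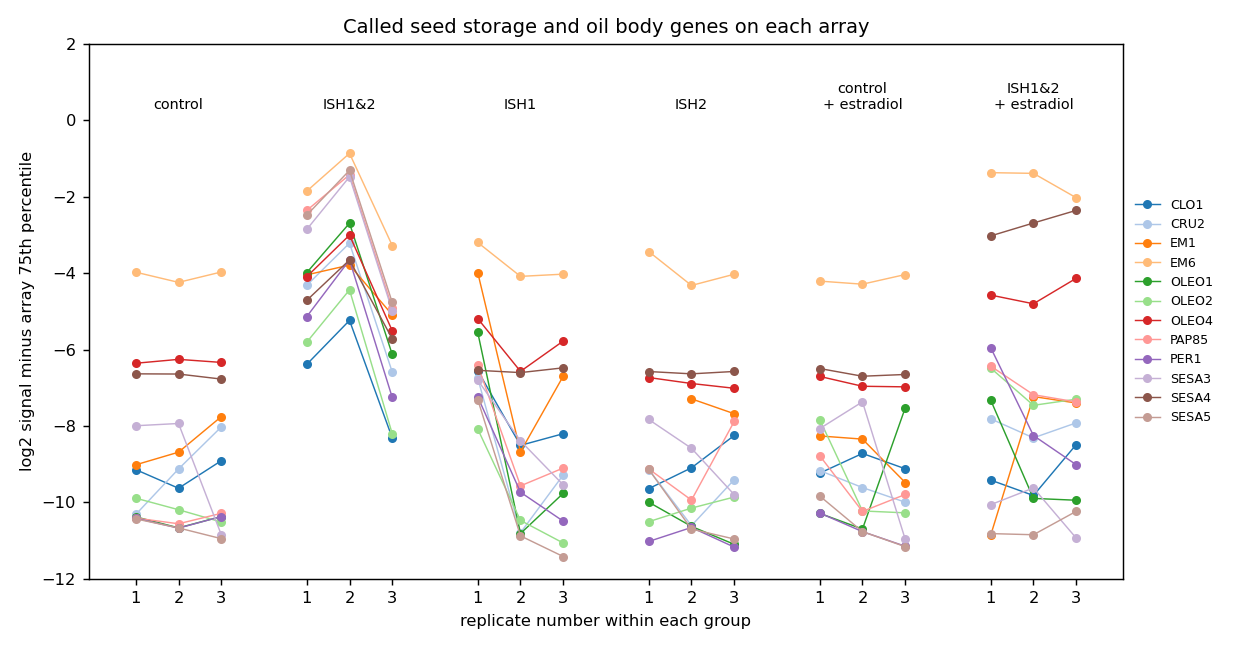
The 12 called seed storage and oil body genes (coloured lines), in log2 signal minus the array's 75th percentile, on each replicate of 6 groups. In uninduced ISH1&2 roots every gene was highest in replicate 2 and lowest in replicate 3, with array medians of -4.07, -3.11 and -5.61, and ISH1 replicate 1 was raised to a median of -6.55.

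None of 12 measured regulators of embryo maturation was called in either direction by limma (5 had an unadjusted p under 0.05), with a list median of -0.01. LEC1 differed by -0.27, FUS3 by 0.49 and ABI3 by 0.39, adjusted p between 0.272 and 0.387. These encode transcription factors known to switch on storage protein genes in the embryo. In the fit to the 6 arrays alone no seed storage member was called, with an adjusted p of 0.137 for SESA5 and 0.141 for PAP85 and OLEO1. The normexp correction called 3 of the 12, namely SESA5, PAP85 and EM6. Leaving out ISH1&2 replicate 2 called 7 of the 12, and leaving out control replicate 1 also 7.

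The same order of the ISH1&2 arrays was found in 71 of the 147 genes past 2-fold (48.3%) against 14.5% of all genes, and in 24 of the 27 higher genes with a fitted difference past 16-fold. The SD among the ISH1&2 arrays was 1.37 in the median gene of these 71, and 0.277 among control arrays. AT1G04560, which encodes a membrane protein of the AWPM-19 family, read -3.14, -2.12 and -5.09 against -8.34, -8.75 and -9.25 (at least 40.3-fold, adjusted p = 3.22e-04). Its fitted difference was 5.33, and 4.65 without ISH1&2 replicate 2 and 6.19 without replicate 3. Under the normexp correction it was 2.72 and not called (adjusted p = 0.0568 in limma). AT3G15670, a LEA protein, read -5.29, -6.55 and -5.89 in control and -2.28, -1.44 and -4.27 in ISH1&2 roots. It was 9.48-fold higher with all arrays, 5.43-fold without replicate 2 and 17.7-fold without replicate 3. AT1G54870 read -7.39, -6.49 and -6.94 against -3.09, -1.82 and -5.08, and its fold of 12.2 became 7.44 and 22.4 without the same arrays. M17 and M10, late embryogenesis genes picked after their values were seen, were at least 23.5-fold and 10.0-fold higher.

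Plant defensin genes shared this order and were also called higher with estradiol. PDF1.1, a small antifungal peptide, measured -9.20, -8.16 and -9.52 in control roots, where 1 of 3 arrays was above background, and -1.91, -0.54 and -4.13 in ISH1&2 roots. The difference was 6.77 (SE 0.843, adjusted p = 6.73e-04 in limma), 5.89 without ISH1&2 replicate 2 and 7.62 without replicate 3, and with estradiol it was 9.37. PDF1.3 (1.98, 1.41 without replicate 2 and 2.62 without replicate 3) and PDF1.2c (1.66) were also called, with 5.71 and 5.54 under estradiol. Both calls were lost without replicate 1 or 2 of either group. The adjusted p was then 0.0615 to 0.0986 for PDF1.3 and 0.0804 to 0.123 for PDF1.2c in limma. Quantile normalization lost both as well (0.0605 and 0.128). These defensins are close paralogs, so their probes may share signal. In the jasmonate and ethylene defence list these were the 3 members called higher of 17, while VSP1, a vegetative storage protein, was lower by 0.34 (list median 0.14).

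Other named genes varied less among the ISH1&2 arrays. AT3G33528 measured -6.40, -6.04 and -6.26 in control and -3.17, -3.19 and -3.28 in ISH1&2 roots (8.09-fold, log2 difference 3.02, SE 0.15, adjusted p = 6.40e-08). With estradiol its difference was 3.30. AT3G56210 stood at 0.06, -0.22 and 0.02 against 2.85, 3.02 and 2.96 (7.94-fold), and at 3.1 on the log2 scale with estradiol, but its 3 probes disagreed, from -0.22 to 4.15. AT5G53486 read -6.41, -6.80 and -5.99 in control and -3.17, -2.53 and -2.49 in ISH1&2 roots, with differences of 3.23, 4.27 and 3.49 on the 3 slides. It was 12.7-fold higher, with a log2 difference of 3.66 and of 3.97 with estradiol. For none of these 3 was the change with estradiol called, with adjusted p between 0.278 and 0.619.

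AT4G16215 was 13.6-fold higher in ISH1&2 than in control roots, at -1.01, -2.20 and -1.93 against -5.60, -5.58 and -5.26. It was brighter still in uninduced ISH1 roots, at 4.04, 4.13 and 3.36, and near control in ISH2 roots, at -5.53, -5.37 and -5.61. Every uninduced ISH1 array lay above every ISH1&2 array, and these above every ISH2 and control array.

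The largest decrease was that of AT3G01345, at 1.18, 1.16 and 1.22 in control roots and -6.70, -6.55 and -6.69 in ISH1&2 roots. It was 228-fold lower (log2 difference -7.83, SE 0.349, adjusted p = 1.67e-08), with a log2 difference of -7.56 under estradiol and a second probe at -3.22. ISH1 read -5.79, -6.28 and -5.67 and ISH2 -3.94, -4.25 and -5.28, so control roots stood apart from all 3 lines. Among the genes past 2-fold, 7 were called in the same direction in ISH1&2, ISH1 and ISH2 against control, comparisons that share the control arrays. They include DEG9, a Deg protease (2.53, 2.45 and 2.42 in the 3 lines), RAC2, a small GTPase of the ROP family (1.46, 1.71 and 1.58) and AT5G01080 (-1.79, -1.76 and -2.16). The other 3 were array transcripts with no matched locus.

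Lower genes were fewer and mostly smaller in size, with 9 of the 46 past 4-fold. TOC64-III, a relative of the receptors for chloroplast protein import, read 0.01, -0.10 and 0.01 in control roots and -1.01, -2.48 and -2.25 in ISH1&2 roots. It was 3.69-fold lower (SE of the log2 difference 0.223, adjusted p = 4.82e-04 in limma), and ISH1 and ISH2 roots ranged from -0.03 to 0.12. CWINV5, of the cell wall invertases that split sucrose, measured -2.51, -2.72 and -2.53 against -3.85, -4.41 and -4.26 (3.01-fold lower, adjusted p = 0.00496). AT4G04601 was 5.79-fold lower and LSH2, of the plant ALOG family, 4.17-fold lower. For LSH2 control replicate 1 stood at -4.78, well above the other controls at -7.08 and -6.86, and the call was lost without it (adjusted p = 0.0981) and without ISH1&2 replicate 1 (0.0830).

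HOL2, a homolog of the methyltransferase HARMLESS TO OZONE LAYER, was 2.78-fold lower, AT1G03495, an acyltransferase, 2.77-fold and AT3G22142 3.23-fold. Among the lower genes, 3 were above background on all control arrays and on no ISH1&2 array. AT3G28220 was 6.15-fold and AT2G15880 3.15-fold lower, which are the fitted folds, and AT4G29640 at least 3.76-fold. Under the normexp correction all 3 calls were lost, with log2 differences of -0.72, -0.48 and -0.51 in that order (adjusted p of 0.828 or more in limma). AT2G15880 also lost its call without ISH1&2 replicate 2 (0.0503). AT3G28220 ranged widely in control roots, at -7.30, -4.91 and -8.03, and the SE of its log2 difference was 0.639 (adjusted p = 0.0199). Without control replicate 2 it was 3.31-fold lower (adjusted p = 0.0970), and the call was also lost without ISH1&2 replicate 1 (0.0551) or 2 (0.0929). AT1G03495 lost its call with any array of the 6 left out (adjusted p 0.0745 to 0.155) and without the slide block (0.0688). HOL2 lost its call without ISH1&2 replicate 1 or 2 or control replicate 1 (0.0517 to 0.0859). AT3G22142 lost its call without ISH1&2 replicate 2 or control replicate 2 or 3 (0.0659 to 0.114).

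**Figure D3:**
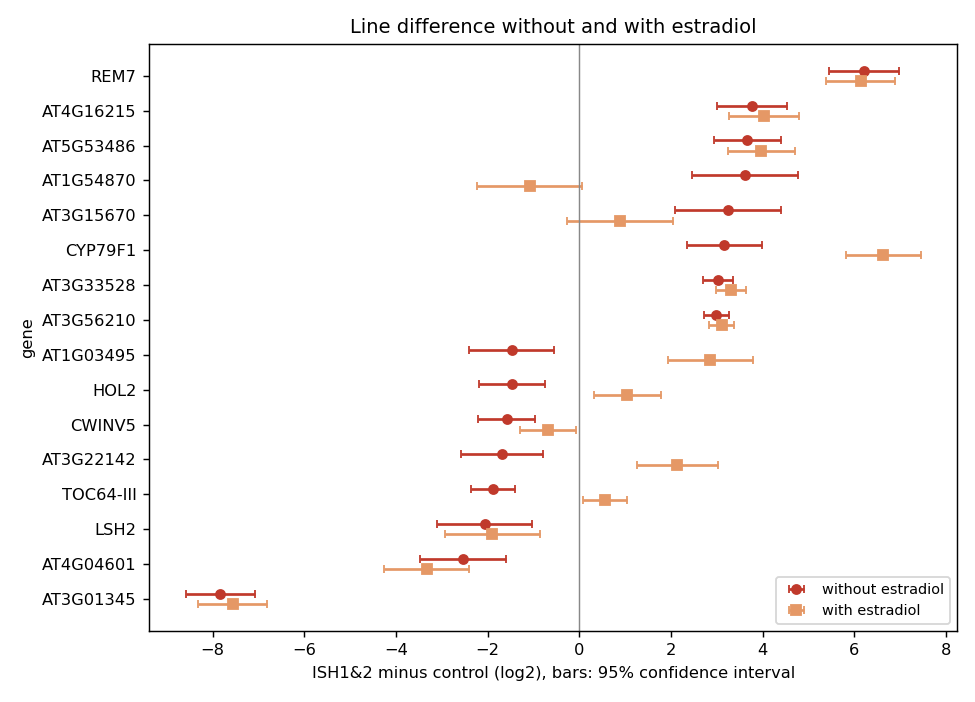
Line difference (ISH1&2 minus control, log2) without estradiol (circles) and with estradiol (squares) for the 8 highest and 8 lowest named genes above background on all 6 arrays, with 95% confidence intervals. AT3G01345 lay at -7.83 and -7.56 and REM7 at 6.20 and 6.13, and TOC64-III, HOL2, AT3G22142 and AT1G03495 lay below 0 without estradiol and above 0 with it.

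Arrays of the same lines with estradiol, which share no array with the uninduced comparison, showed which differences were present on both treatments. There 8893 genes (32%) were called higher and 9667 (34.8%) lower. Of the 147 genes at least 2-fold higher without estradiol, 94 were also called higher with it, 10 were called lower and 43 were not called. Of the 46 lower genes, 17 were called lower, 16 higher and 13 not. The median difference with estradiol was 1.97 for the higher genes and -0.08 for the lower ones.

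The line difference itself changed with estradiol in 110 of the 193 genes, when 54.2% of all genes did so. Among the higher genes it became larger in 40 and smaller in 39. Of the 71 genes in the array order described above, it became smaller in 27 and larger in 7. Of the 76 others it became smaller in 12 and larger in 33. Without ISH1&2 replicate 2, 50 genes changed with estradiol.

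CYP79F1, an enzyme of aliphatic glucosinolate synthesis, belonged to the genes that went further with estradiol. It read -7.28, -7.38 and -7.12 in control and -4.95, -3.70 and -3.66 in ISH1&2 roots (8.91-fold, adjusted p = 5.44e-04), and its log2 difference grew from 3.16 to 6.63 (adjusted p of the change 8.51e-05). MYB29, a regulator of the same pathway picked after its values were seen, was at least 7.19-fold higher without estradiol. ABCG19, an ABC transporter picked likewise, was at least 4.85-fold higher, with ISH1&2 values spread over -8.62, -7.05 and -4.98. Both were above background on no control array, and both line differences were called larger with estradiol. In the opposite sense SESA5 read -10.82, -10.85 and -10.23 in ISH1&2 roots with estradiol, where no array of either line was above background with estradiol. The change of its line difference was called (adjusted p = 1.05e-04), with no exact size since only the uninduced ISH1&2 arrays measured it. Of the 12 called seed genes, 6 changed with estradiol, where 54.2% of all genes did, and 5 of those 6 became smaller. With estradiol 6 of the 12 were still called higher, against 32% of all genes.

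**Figure D4:**
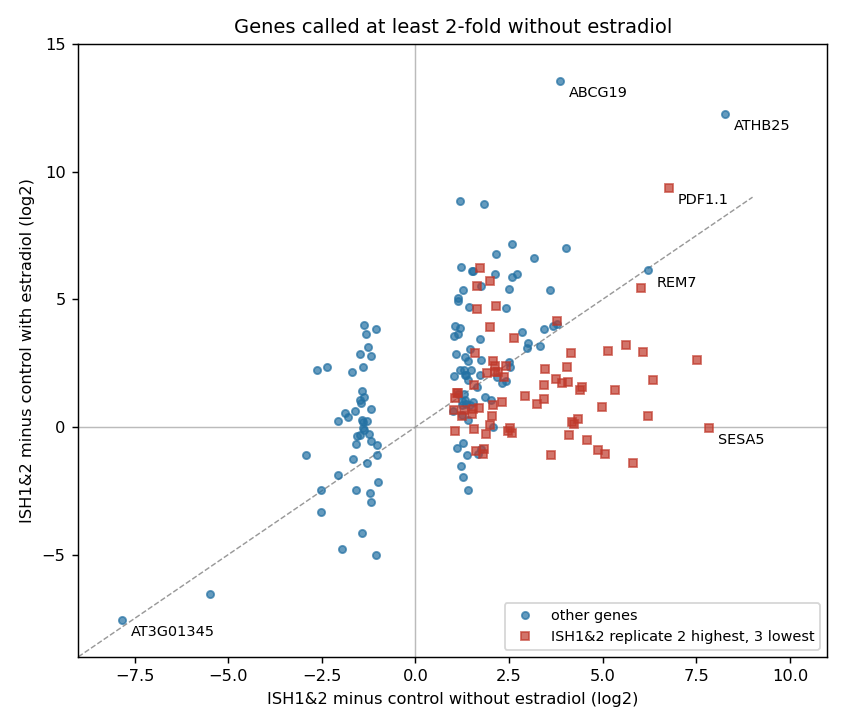
The 193 genes called at least 2-fold without estradiol, by line difference without (x) and with estradiol (y), both ISH1&2 minus control in log2, and the dashed line marks equal values. Squares are the 71 higher genes with ISH1&2 replicate 2 highest and replicate 3 lowest, of which SESA5 lies at 7.83 and -0.05, and AT3G01345 lies at -7.83 and -7.56.

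Compared with uninduced ISH1 and ISH2 roots as well, 182 of all genes (0.654%) were higher in ISH1&2 than in each and 247 (0.888%) lower than in each. Of the genes past 2-fold against control, 56 of 147 higher and 14 of 46 lower ones passed in the same direction, and 39 of the 56 were in the array order described above. These contrasts share the ISH1&2 arrays, so the counts are a description. Without ISH1&2 replicate 2, 29 genes passed in place of 70. Of the 12 called seed genes, 9 were higher than in both, and 0 of the 17 list members were called in ISH1 or in ISH2 against control (list medians 0.82 and 0.09). Over all 27816 genes tested, 169 were called higher and 51 lower in ISH1, and 68 and 79 in ISH2. With so few calls in these lines, a count of 0 among 17 tells little.

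Phosphate starvation was the list with the most calls after the seed list. Plants short of phosphate activate the noncoding RNA IPS1, SPX proteins and phosphate transporters. Here 5 of 14 were higher and 0 lower, with a list median of 0.37, where 5.04% of all genes were higher and 6.88% lower. IPS1 stood at -7.82, -7.58 and -8.02 in control roots and -6.92, -6.12 and -6.06 in ISH1&2 roots (2.71-fold, adjusted p = 0.0137), while ISH1 roots, at -6.49, -6.66 and -6.39, lay in the same range as ISH1&2. The call of IPS1 was lost without ISH1&2 replicate 2 (adjusted p = 0.0715) or 3 (0.0556), and under the normexp correction, where its difference was 0.40. SPX1 (0.80), PHT1;4 (0.67), PHT1;5 (0.52) and SQD2, a sulfolipid enzyme (0.23), were the others. SPX1 lost its call without replicate 2 or 3 of either group (adjusted p 0.0664 to 0.0910 in limma). Under estradiol 11 of the 14 were higher, with a median of 1.51.

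In the salicylic acid list 3 of 17 were higher and 0 lower, with a median of 0.13. They were ALD1 (0.87) and FMO1 (0.47), enzymes of the pipecolic acid pathway of systemic resistance, and the transcription factor WRKY38 (0.60). The call of FMO1 was lost with any single compared array left out (adjusted p 0.0574 to 0.199 in limma). That of ALD1 was lost without any compared array other than ISH1&2 replicate 1 (0.0739 to 0.153). Under the normexp correction all 3 calls were lost (0.394 to 0.648). With estradiol 12 were higher and the median was 2.64.

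The lists of shoot genes are set against all genes tested, of which 5.04% were called higher and 6.88% lower before induction. In the shoot meristem and boundary list 0 of 15 were higher and 3 lower (median -0.09), namely the homeobox gene KNAT1 (-0.70), WOX4, which acts in the cambium (-0.39), and BOP2, a boundary gene (-0.31). The call of WOX4 was lost without the slide block (adjusted p = 0.288) and without any array of the 6 other than ISH1&2 replicate 3 (0.0758 to 0.170). KNAT1 read -1.21, -1.37 and -1.19 against -1.95, -2.08 and -1.84, with no overlap. Under estradiol 12 of 15 were higher, with a median of 1.35. Of 26 photosynthesis genes 3 were higher and 1 lower, against 24 higher under estradiol. The higher ones were the light-harvesting proteins LHCB3 (0.51) and LHCA1 (0.48) and the photosystem I subunit PSAD-1 (0.37). The 5 probes of PSAD-1 disagreed, from -0.17 to 0.37. The lower one was GLK2, a regulator of chloroplast development (-0.30). LHCA1 lost its call with any array of the 6 but control replicate 3 left out (adjusted p 0.0520 to 0.115 in limma). PSAD-1 lost its call without ISH1&2 replicate 2 or 3 or control replicate 1 or 2 (0.0916 to 0.118). LHCB3 lost its call without ISH1&2 replicate 2 or control replicate 2 (0.0700 and 0.0627). Under the normexp correction LHCB3 and PSAD-1 were not called.

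The zinc finger homeodomain family, to which ATHB25 belongs, held 1 further call among 13 measured members. ATHB34 measured -1.30, -1.28 and -1.16 in control and -0.87, -0.59 and -0.66 in ISH1&2 roots (1.46-fold, adjusted p = 0.00195), and its difference was 1.91 with estradiol. The median of the family was 0.00.

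Calls in the nutrient, hormone and stress lists stand beside 5.04% of all genes called higher and 6.88% called lower. NRT1.5, a nitrate transporter that loads the xylem (-0.48), and the nitrate reductase NIA1 (-0.33) were lower among 14 nitrogen genes. NRT1.5 lost its call without ISH1&2 replicate 2 or control replicate 1 (adjusted p = 0.0599 and 0.0592 in limma). NIA1 lost its call without ISH1&2 replicate 1 or 2 or control replicate 1 or 3 (0.0582 to 0.0890). MYB10, a transcription factor of iron deficiency, was the 1 lower gene of 18 (-0.59), and HRE1, an ethylene response factor of low oxygen, the 1 lower gene of 13 (-0.28). GA20OX3, a gibberellin biosynthesis enzyme, was higher (0.63) and the gibberellin receptor GID1C lower (-0.23), of 21 measured. HSFA2, a heat shock factor, was 2.18-fold higher at -2.46, -1.73 and -2.0 against -3.11, -3.25 and -3.20 (adjusted p = 5.38e-04), and HSP17.4 was lower (-0.56), of 11.

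Among cell cycle and root genes, 3 of 12 mitotic genes were higher, all by less than 0.34 (CYCB1;1, CDKB2;2 and CYCB2;4), and 2 of 9 root tip genes, PLT2 (0.28) and SCR (0.21), which maintain the stem cell niche. GL2, which represses root hair fate, was the 1 called of 17 root hair genes (0.20), and CASP4 (0.51) and CASP5 (0.52), membrane proteins of the Casparian strip, were the 2 called of 22. Over all genes tested, 5.04% were called higher. CDKB2;2 and CASP5 lost their calls with any array of the 6 left out (adjusted p 0.0734 to 0.217 and 0.0502 to 0.171 in limma). CYCB2;4 lost its call with any but control replicate 3 left out (0.0503 to 0.176). CYCB1;1, PLT2 and SCR lost theirs without replicate 1 or 2 of either group (0.0756 to 0.216). GL2 lost its call without replicate 1 or 3 of either group (0.0846 to 0.139). No member was called by limma among 10 lateral root genes (2 with an unadjusted p under 0.05), 10 type-A response regulators (1), 13 flavonoid genes (6), 8 construct candidates (1) or 7 reference genes (1). The flavonoid genes DFR (-2.02), LDOX (-1.62), UF3GT (-1.46) and PAP1 (-1.44) had adjusted p between 0.0580 and 0.207.

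**Figure D5:**
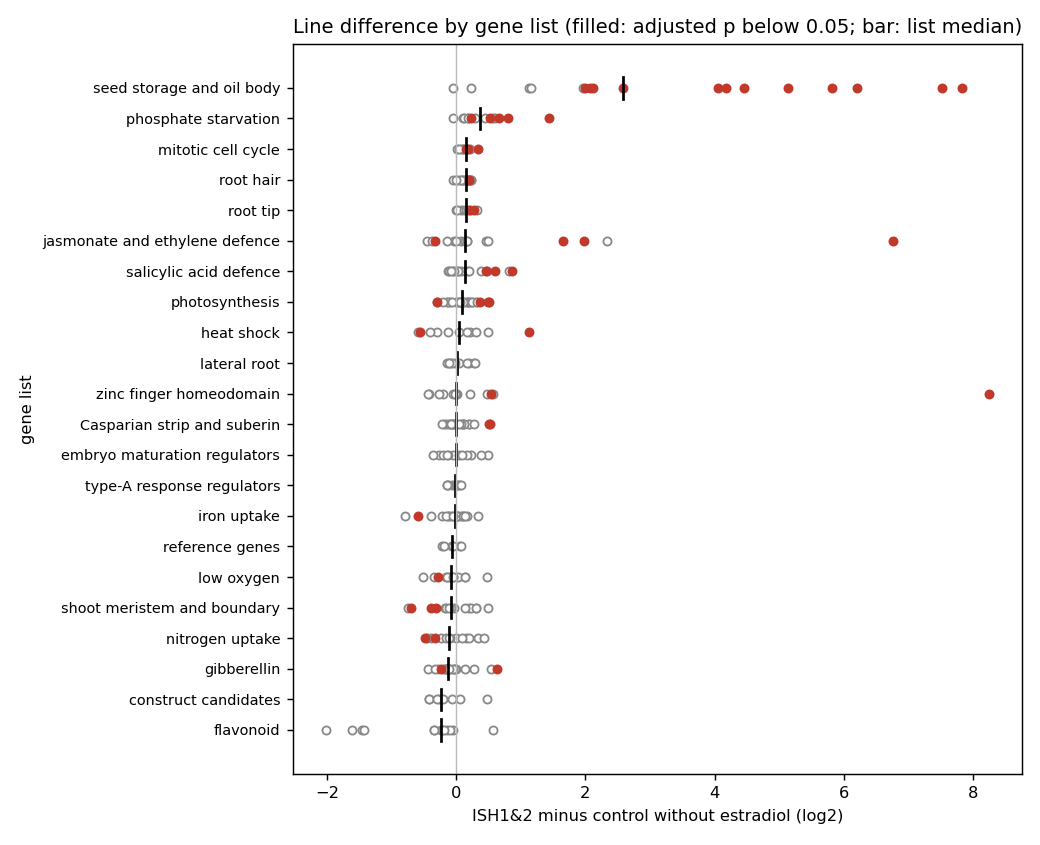
Line difference without estradiol (ISH1&2 minus control, log2) of each measured member of 22 gene lists, filled where the adjusted p was below 0.05, with the list median as a bar. The seed storage and oil body list has a median of 2.58, and that of phosphate starvation 0.37.

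Root markers were well above background in both groups on all arrays. The summed linear level of 12 green tissue markers was 53.0 to 64.3 on control and 56.8 to 69.9 on ISH1&2 arrays, with 2 called higher. That of 6 root hair markers was 8.93 to 9.62 and 9.96 to 10.5, with 0 called. The 7 endodermis markers summed to 26.9 to 34.3 and 30.5 to 36.8, with 2 called higher. The 4 root cap markers summed to 0.852 to 1.05 and 1.01 to 1.26, with 0 called. The 5 stem cell markers summed to 2.94 to 3.12 and 3.02 to 3.33, with 2 called higher. Over all genes tested, 5.04% were called higher and 6.88% lower. The called markers were LHCB3, LHCA1, CASP4, CASP5, PLT2 and SCR, and each lost its call without 1 or more of the 6 arrays.

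Along the chromosomes, 5 pairs of neighbouring loci occurred among the 157 placed genes past 2-fold, and the fitted differences within each pair had the same sign. How often neighbouring genes in general do so was not computed. They were AT1G54860 with AT1G54870, AtMT4b with UGT84B2, M17 with M10, SESA3 with SESA4, and the lower pair TOC64-III with AT3G17980. The last gene, AT3G17980, was above background on no array of either group, so its difference has no measurable size.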

How the data were processed

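Roots were measured on 24 one-colour Agilent arrays, 3 for each of 8 groups. The deposited intensity of each spot came, per the file headers, from Agilent Feature Extraction, 1 file per array, with background subtracted and no normalization between arrays, and the deposited flags score each spot as above background, saturated or an outlier. The authors also deposited log2 values shifted to the 75th percentile of each array and to the median of each probe. These log2 values were used as an alternative only.

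Here log2(processed signal) minus the array's 75th percentile was computed after control spots and 346 flagged spots were left out, with 0 saturated spots. Of 43603 probes, 34348 matched a locus of the TAIR10.1 table, and no coordinates were used since the headers name another annotation release. Kept probes were flagged as well above background on every array of 1 or more groups, and the brightest probe over 24 arrays stood for a gene. All arrays were fitted with limma 3.58.1 in R 4.3.3 (8 groups, slide as a block, eBayes, Benjamini-Hochberg over 27816 genes). The replicate number marks the slide in the file headers, with 3 slides per treatment. Deviations from the group means correlated at -0.03 to 0.11 between same-numbered arrays and at -0.15 to 0.03 between others. On simulated data of 27661 genes for this comparison, 81% of 2-fold and 95% of 4-fold changes were recovered and 9 unchanged genes were called. The simulated noise had the same spread in all groups of a gene and no variation of an array shared by many genes. In 71 of the higher genes the median SD was 1.37 among ISH1&2 and 0.277 among control arrays. The simulated rates therefore do not carry over to such genes.

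Named genes were ATHB25 and REM7, the 8 largest differences in each direction among called, matched genes above background on all 6 arrays and of 1 sign on all slides, up to 4 largest bounds in each direction, and up to 3 called members of each of 22 lists. The lower direction had 3 bounds. The comparison and the lists were chosen with earlier results of these data known. Marker lists covered green tissue, embryo and seed, root hair, endodermis, root cap and stem cells. The alternatives were no block, each array left out, quantile and normexp (offset 50) normalization, the deposited log2 values, other filters, a variance trend, and the compared arrays alone. The number of arrays limits the precision.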

Additional observations from a re-analysis of the deposited data

Results flagged for a closer look

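The line difference had opposite signs without and with estradiol, with both called and the change itself called in limma, for 11 named genes. AT3G28220 went from -2.62 to 2.24, a change of 4.86 (adjusted p = 4.11e-04), although it was above background on no uninduced ISH1&2 array, and AT1G03495 from -1.47 to 2.86, a change of 4.33 (adjusted p = 3.52e-05), although its call without estradiol was lost when any of the 6 arrays was left out. AT3G22142 went from -1.69 to 2.14, a change of 3.83 (adjusted p = 7.49e-05), HOL2 from -1.48 to 1.05, a change of 2.52 (adjusted p = 4.56e-04), and TOC64-III from -1.88 to 0.55, a change of 2.43 (adjusted p = 1.62e-05). The shoot genes KNAT1, from -0.70 to 0.33, and BOP2, from -0.31 to 0.65, changed by 1.03 (adjusted p = 1.01e-04) and 0.96 (adjusted p = 2.09e-06). In the other direction HSFA2 went from 1.12 to -0.81, a change of -1.93 (adjusted p = 1.23e-06), GA20OX3 from 0.63 to -0.51, a change of -1.13 (adjusted p = 2.61e-05), CYCB2;4 from 0.16 to -0.53, a change of -0.69 (adjusted p = 4.74e-07), and GL2 from 0.20 to -0.29, a change of -0.49 (adjusted p = 6.69e-05). The call without estradiol was also lost without some single arrays of the 6 for AT3G22142 (adjusted p 0.0659 to 0.114 in limma) and HOL2 (0.0517 to 0.0859). The same held for BOP2 (0.0580 to 0.0681), CYCB2;4 (0.0503 to 0.176) and GL2 (0.0846 to 0.139). The change was called for 39 of the 56 named genes in all, in either sense. Each value is a mean of 3 arrays per group, and no cause was tested.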

How the results depend on the processing

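Leaving out 1 array at a time gave 379 to 1525 genes higher, 649 to 2035 lower, 70 to 179 at least 2-fold higher and 23 to 56 at least 2-fold lower. It gave 67 to 135 genes past 2-fold with the same call under estradiol, 50 to 150 whose difference changed with estradiol, 29 to 84 that also differed from ISH1 and ISH2, and 7 to 13 seed storage genes. The low ends of these ranges came without ISH1&2 replicate 2, or without control replicate 1 (379 genes higher, and 7 seed storage genes under either). ATHB25 ranged over 8.00 to 8.65 and REM7 over 6.15 to 6.30. The count of seed storage genes under each setting was chosen after seeing the data.

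The normexp correction called 451 genes higher and 609 lower, 24 and 8 of them past 2-fold, with 21 called alike under estradiol, 17 changing with it, 10 also differing from ISH1 and ISH2, and 3 seed storage genes, and ATHB25 at 5.18. With only probes above background on all 24 arrays, 54 genes were past 2-fold higher and 17 lower, 45 were called alike under estradiol, 39 changed, 36 differed from both lines, and 2 of 4 seed storage genes were called. That filter removes genes dim in control roots. The fit to the 6 arrays alone gave 10 genes higher and 3 lower, all past 2-fold, and 0 seed storage genes, from 2 residual degrees of freedom. The 12 ISH1&2 and control arrays alone gave 53 genes called alike under estradiol and 45 changing. Otherwise the cause was not tested.

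Without the slide as a replicate block, 144 genes were at least 2-fold higher and 40 lower, with 176 of the 193 shared, and the block moved no count of calls by over 1.5 times. The calls of WOX4 (adjusted p = 0.288), AT1G03495 (0.0688), HSP17.4 (0.0592) and CYCB2;4 (0.0568) were lost without it. The other settings shared 159 (quantile), 192 (deposited log2 values), 166 (no filter) and 192 (variance trend) of the 193. Over 797 values of 54 named genes, 212 of 51 genes missed the threshold and 0 changed direction. Dim signals limit the folds of genes near background, where normexp values were smaller.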
